A study of Mus musculus with 3 samples.

Results

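mt-Atp8, mt-Atp6 and mt-Cytb are 3 protein-coding genes of the mouse mitochondrial chromosome, and their RNA was followed here in ovulated oocytes of 3 litters. They were chosen by name and position, and are 3 of the 37 mitochondrial genes that could be placed in the deposited coverage tracks, of which 13 make messenger RNAs, 2 ribosomal RNAs and 22 transfer RNAs. RNA sequencing gave 1 library per litter, and all 3 libraries belong to 1 group, so no treatment or genotype was compared. The oocytes came from superovulated females of mixed strain background that carried LSD1 FL/FL and were ZP3::Cre negative. LSD1 is a histone demethylase, FL/FL means that both copies carry sites at which Cre could cut, and without the ZP3::Cre transgene, which acts in oocytes, the gene is left whole. Eggs were collected by embryonic day 0.5, lysed in Prelude Direct Lysis Buffer and amplified with the Nugen Ovation RNA-Seq kit by SPIA, a linear isothermal copying of cDNA. The labels used here do not give the number or age of the females or the number of oocytes per library. Markers of oocytes and of cumulus cells are nuclear genes, which were not located in this genome build, so the labelled cell type was not analysed here.

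The proteins belong to the machinery that makes ATP. mt-Atp8 and mt-Atp6 encode subunits of ATP synthase (complex V): Atp6 forms part of the channel through which protons drive the enzyme, and Atp8 is a small membrane subunit beside it. Both are read from 1 RNA in overlapping frames. mt-Cytb encodes cytochrome b, the subunit of complex III at which ubiquinol is oxidised and the only subunit of that complex made inside mitochondria. The long mitochondrial transcripts are cut mainly at the transfer RNAs that lie between the genes, but no transfer RNA separates mt-Atp6 from mt-Co3, a cytochrome oxidase subunit. The eggs of mammals hold many mitochondria, which supply the energy for maturation and for the first divisions.

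mt-Atp8 (ENSMUSG00000064356.3) spans bases 7766 to 7969 of the mitochondrial chromosome, mt-Atp6 (ENSMUSG00000064357.1) bases 7927 to 8607 and mt-Cytb (ENSMUSG00000064370.1) bases 14145 to 15288, all on the plus strand, without introns. Coordinates are 1-based, from the GENCODE M21 annotation of GRCm38, and were used on the mm9 tracks because the mitochondrial chromosome, 16299 bases in the files, was taken to be the same in both builds. The sequences that set the limits of what can be measured are the 43 bases that belong to both mt-Atp8 and mt-Atp6, the passage from mt-Atp6 into mt-Co3, and the end of mt-Cytb. In the first, capitals mark the first codon of mt-Atp6 and the last codon of mt-Atp8, in the second the last codon of mt-Atp6 run together with the first codon of mt-Co3, and in the third the last base of mt-Cytb:
shared by mt-Atp8 and mt-Atp6, chrM:7927-7969: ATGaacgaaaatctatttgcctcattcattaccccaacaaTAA
mt-Atp6 into mt-Co3, chrM:8588-8626: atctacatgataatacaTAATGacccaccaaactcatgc
end of mt-Cytb, chrM:15259-15288: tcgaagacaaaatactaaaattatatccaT

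mt-Atp6 begins 161 bases after mt-Atp8 and is read in another frame, displaced by 2 bases. A read over the 43 shared bases cannot be given to either gene, so those bases are stated apart: mt-Atp8 has 161 bases of its own, mt-Atp6 has 637, and base 8607 belongs to mt-Atp6 and mt-Co3 alike. mt-Cytb has 1144 bases, 1 more than 381 whole codons, and as background that single last T becomes a stop codon when the RNA is polyadenylated. GC content was 31.9% in mt-Atp8, 36.0% in mt-Atp6 and 39.1% in mt-Cytb.

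By mean level, mt-Cytb was the highest of the 13 messenger RNA genes, and the ATP synthase genes lay in the middle and near the bottom. mt-Atp8 and mt-Atp6 are parts of 1 RNA, so their separate places are those of stretches of that RNA. Levels are given as RPKM, the number of 72-base alignments per kilobase of gene and per 1e6 alignments in the library, over bases that belong to no other gene. mt-Cytb stood at 1520, 1130 and 2724 RPKM in litters 1, 2 and 3 (1791 ± 831, SD, n = 3). mt-Atp6 stood at 904, 674 and 922 RPKM in the same order (833 ± 139, SD, n = 3). mt-Atp8 was the lowest of the members in every litter, at 371, 316 and 649 RPKM (445 ± 179, SD, n = 3). The ranges of the 3 genes over these bases did not overlap: the lowest library of mt-Cytb was above the highest of mt-Atp6, and the lowest of mt-Atp6 was above the highest of mt-Atp8. With the shared bases counted in both genes, mt-Atp8 (629 to 916 RPKM) and mt-Atp6 (744 to 983 RPKM) did overlap. Over the 43 shared bases the level was 2164, 1804 and 1916 RPKM (1961 ± 184, SD, n = 3), which was above both genes' own bases in every litter. RPKM is relative to all other RNA in a library, so in these bulk samples fewer mitochondria or cells and less RNA in each cannot be told apart.

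These values rest on many reads. The libraries held 31787887 to 35183199 alignments, of which 1.41% to 3.12% lay on the mitochondrial chromosome, with litter 3 the highest. Summed depth over the gene's own bases came to 2101, 1615 and 3348 alignments for mt-Atp8, 20262, 13638 and 18810 for mt-Atp6 and 61183, 41096 and 99804 for mt-Cytb in litters 1, 2 and 3. The exact 95% Poisson interval of the thinnest value, mt-Atp8 in litter 2, was 300 to 331 RPKM, and that of mt-Cytb in litter 3 was 2707 to 2741. Copies made in amplification are not independent molecules, so such intervals cover counting error only. The labels name the samples by litter, and the SD between litters includes any technical difference between single libraries. Per the file headers, each library was also a lane of its own, so litter and lane cannot be told apart.

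Among the 13 messenger RNA genes, mt-Cytb ranked 1, 1 and 3 in litters 1, 2 and 3, mt-Atp6 ranked 5, 6 and 9, and mt-Atp8 ranked 11, 11 and 10. Next below mt-Cytb by its mean was mt-Co1, a complex IV subunit, at 1738 ± 1092 RPKM (SD, n = 3), and next above it was the ribosomal RNA mt-Rnr2 at 2844 ± 746. mt-Cytb was above mt-Co1 in 2 of 3 litters, litter 3 being the exception, so these neighbours did not differ beyond their spread. mt-Atp6 lay between the complex I subunits mt-Nd2 (839 ± 418 RPKM) and mt-Nd1 (822 ± 254), both within its own spread. The genes on either side of mt-Atp8 were mt-Nd6 (560 ± 64.6 RPKM), also of complex I, and mt-Co3 (193 ± 33.5). mt-Atp8 exceeded mt-Nd6 in litter 3 alone, whereas it was above mt-Co3 in all litters with no overlap of the ranges. The 7 complex I genes spread from 107 to 1493 RPKM by their means, and the 3 complex IV genes from 193 to 1738, so neither complex had 1 common level.

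**Figure D1:**
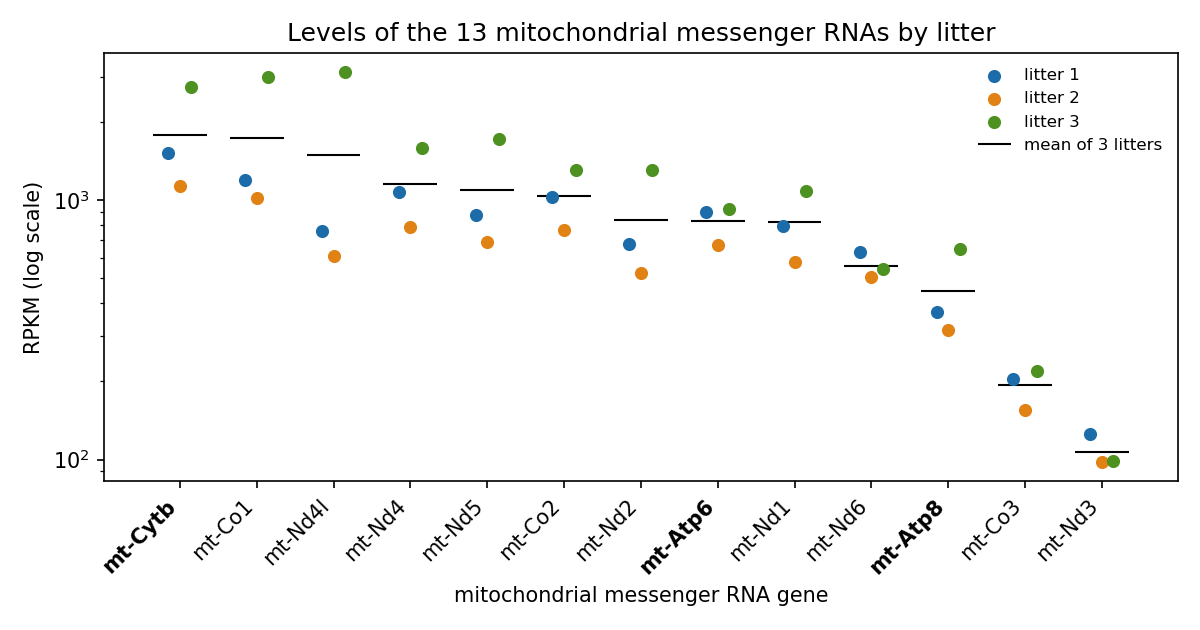
Level in RPKM (log axis) of each of the 13 mitochondrial messenger RNA genes, with 1 point per litter and a line at the mean of the 3 litters. Genes are ordered by mean, with the 3 genes described here in bold. mt-Cytb stands first with a mean of 1791 RPKM, mt-Atp6 eighth at 833 and mt-Atp8 eleventh at 445, and litter 3 is the highest of the litters for all 3.

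Compared within each library and averaged over all bases, the ATP synthase pair had a lower level than mt-Cytb in every litter. The pair was taken as 1 unit of 841 bases, from 7766 to 8606, with the shared bases counted once. Its level was 866, 663 and 921 RPKM in litters 1, 2 and 3 (817 ± 136, SD, n = 3). The ratio of the pair to mt-Cytb was 0.570 in litter 1, 0.587 in litter 2 and 0.338 in litter 3. On the log2 scale these ratios were -0.81, -0.77 and -1.57 (-1.05 ± 0.45, SD, n = 3). Litters 1 and 2 thus lay close together and litter 3 apart, and the mean corresponds to a level 2.07-fold higher in mt-Cytb. Without litter 3 the mean was -0.79. All 3 litters showed the same direction, and the two-sided exact sign-flip permutation test gave p = 0.25, the smallest value that 3 litters allow, so the test cannot pass 0.05. Because both regions come from the same library, the ratio does not depend on how libraries are scaled. With each start position counted once it shrank to -0.10, since reads started at 77.8% to 91.4% of all positions in both regions and such a count is near its ceiling. By median depth the mean log2 ratio was -0.72 ± 0.65 (SD, n = 3). The direction also depended on the part compared. In the first of 3 equal sections the pair was higher, at 1173, 986 and 1174 RPKM against 348, 236 and 1005 for mt-Cytb. In the middle and 3' sections mt-Cytb was higher in every litter.

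Within the pair, mt-Atp8 was lower than mt-Atp6 per base. The ratio over each gene's own bases was 0.410, 0.468 and 0.704 in litters 1, 2 and 3, or -0.96 ± 0.41 on the log2 scale (SD, n = 3; two-sided exact sign-flip p = 0.25, again the smallest possible). Both genes are parts of 1 RNA. With the shared bases counted in both genes the mean was -0.24, and with each start position counted once it was -0.06.

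Depth along the pair was uneven, and the highest stretch lay at and just after the overlap of the reading frames. Depth is given here as the number of alignments over a base per 1e6 alignments of the library. The base of highest depth was 7977, 7961 and 7960 in litters 1, 2 and 3, that is 194 to 211 bases from the first base of mt-Atp8, with 213, 174 and 164 per 1e6. This was 5.31, 6.97 and 2.88 times the median depth over the pair in the same litter. In windows of 40 bases, the first window of mt-Atp8 (7766 to 7805) held 10.8, 8.52 and 26.9 per 1e6, and the window from 7966 to 8005 held 199, 164 and 152. Depth then fell to 8.17, 5.95 and 28.3 per 1e6 in the window from 8366 to 8405, inside mt-Atp6. A smaller peak followed, with 87.5, 53.8 and 56.8 per 1e6 from 8486 to 8525, and the last full window, 8566 to 8605, was the lowest of the 21 by its mean (9.77 ± 3.27, SD, n = 3). The highest and the lowest of these windows differed 17.6-fold. Their sequences are shown because the RNA of 1 transcript was read so unequally between them, with a capital at the base of highest or lowest mean depth:
highest window of the pair, chrM:7966-8005: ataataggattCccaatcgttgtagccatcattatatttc
lowest window of the pair, chrM:8566-8605: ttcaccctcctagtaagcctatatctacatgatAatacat

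The highest window holds 32.5% G and C and the lowest 35.0%. Over all 21 windows, which range from 22.5% to 50%, Pearson's r of GC content with log2 mean depth was -0.01. Neighbouring windows share reads, so this is a description only. With the pair cut into 3 equal sections from its 5' end, levels were 1111 ± 108, 913 ± 216 and 425 ± 97.5 RPKM (SD, n = 3). The ratio of the 3' section to the 5' section was -1.41 ± 0.22 on the log2 scale (SD, n = 3), lower at the 3' end in 3 of 3 litters (two-sided exact sign-flip p = 0.25).

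**Figure D2:**
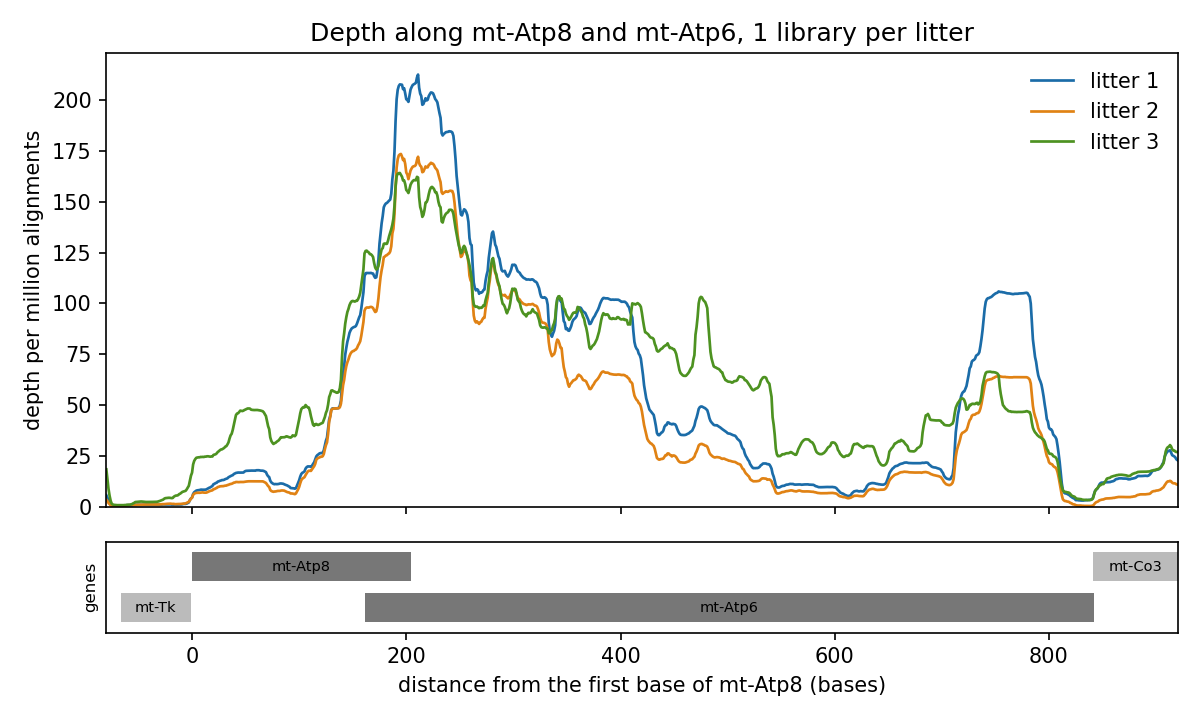
Depth per 1e6 alignments at each base along mt-Atp8 and mt-Atp6, plotted against the distance from the first base of mt-Atp8, with 1 line per litter and the genes as bars below. The peak near 200 bases reaches 213, 174 and 164 per 1e6 in litters 1, 2 and 3. Litter 3 is the highest of the litters before it and in the trough after it.

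In mt-Cytb most of the depth was in the middle of the gene. The peak lay at base 14719 in litters 1 and 2 and at base 14667 in litter 3, with 714, 504 and 724 per 1e6. Relative to the gene's median depth this was 15.1, 14.8 and 4.59-fold. The highest 10% of bases held 49.4%, 47.6% and 30% of the summed depth of mt-Cytb in litters 1, 2 and 3, against 29.4%, 32.1% and 22.1% for the pair. Depth was thus more concentrated in mt-Cytb than in the pair in every litter, and least concentrated in litter 3 for both. In 3 equal sections, mt-Cytb stood at 530 ± 416, 3569 ± 1375 and 1279 ± 716 RPKM (SD, n = 3). The 3' section exceeded the 5' section in 3 of 3 litters, by 1.42 ± 0.34 on the log2 scale (SD, n = 3; two-sided exact sign-flip p = 0.25), the opposite direction to the pair. It depends on that split, since with 2 equal sections it was 0.09. The highest and the lowest of the 28 windows of 40 bases, with a capital at the base of highest or lowest mean depth, were:
highest window of mt-Cytb, chrM:14665-14704: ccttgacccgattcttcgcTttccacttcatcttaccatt
lowest window of mt-Cytb, chrM:14145-14184: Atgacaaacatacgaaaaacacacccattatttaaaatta

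They differed 46.9-fold in mean depth. The highest window holds 45% G and C and 15% A, the lowest 25% G and C and 52.5% A. Over the 28 windows, which range from 25% to 52.5% in GC content, Pearson's r with log2 mean depth was 0.43 (Spearman's rho 0.39), again as a description. The lowest window is the start of the gene, where its first codon lies, and depth there was 10.7, 4.02 and 20 per 1e6 in litters 1, 2 and 3. Its mean of 11.6 was within the spread of that of the last window, 15225 to 15264, at 11.9 ± 5.22 per 1e6 (SD, n = 3), and the final 24 bases of the gene, too few for a window, were left out.

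**Figure D3:**
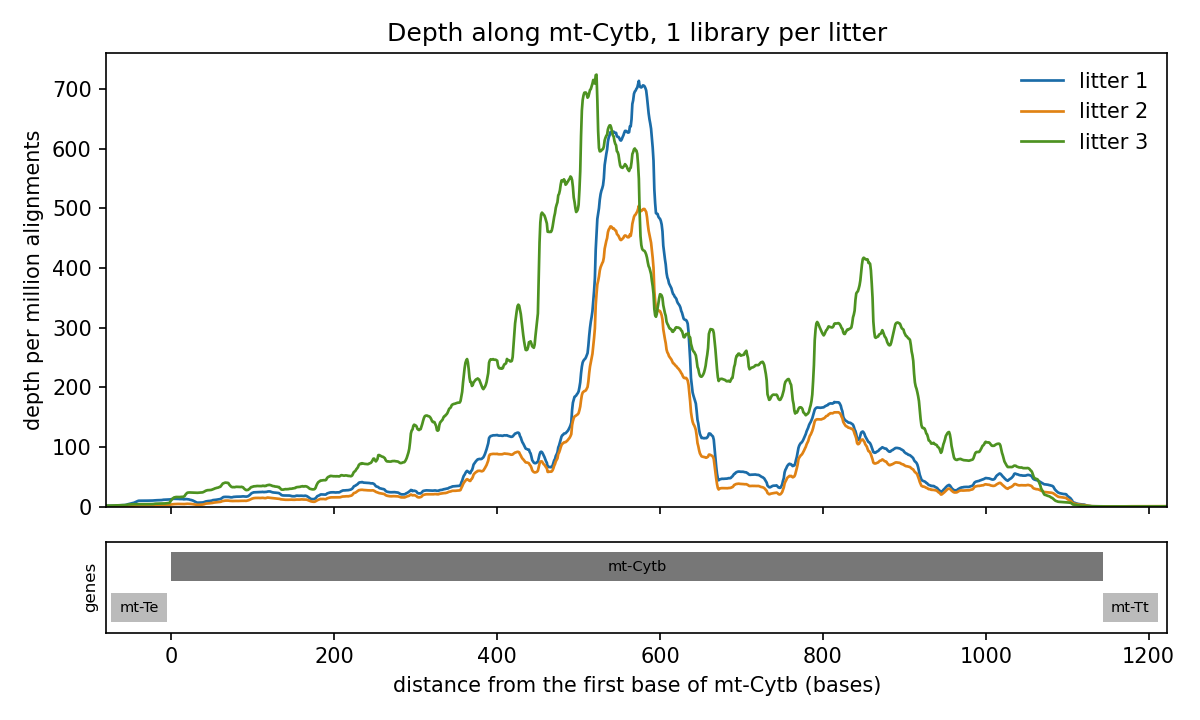
Depth per 1e6 alignments at each base along mt-Cytb, plotted against the distance from its first base, with 1 line per litter and the neighbouring transfer RNA genes as bars below. Litters 1 and 2 have a narrow peak at 574 bases, litter 3 peaks at 522 bases, and depth falls to near 0 before the 3' end in all litters.

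The shape along each transcript recurred between litters, most closely between litters 1 and 2. Pearson's r of log2(depth per 1e6 + 0.1) over the 841 bases of the pair was 0.98 between litters 1 and 2, and litter 3 gave 0.87 with litter 1 and 0.91 with litter 2. Over the 1144 bases of mt-Cytb the same 3 pairs gave 0.99, 0.88 and 0.88. Neighbouring bases share reads, so these values describe the curves and carry no test. Reads also stacked at the same start sites. The 10 most used start positions held 13.4%, 13.8% and 10.8% of the alignments that start in the pair, and 16.1%, 15.3% and 13.6% of those in mt-Cytb. Position 7956, within the shared bases, was the most used start of the pair in litters 1 and 2 (539 and 415 alignments), and position 14666 that of mt-Cytb (1739 and 1265). In litter 3 the most used starts were 7906, with 355 alignments, and 14597, with 1989.

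All 3 genes were highest in litter 3 and lowest in litter 2. For mt-Atp6 the exact 95% Poisson intervals of litters 1 and 3, 892 to 917 and 909 to 935 RPKM, overlapped, so its order between these litters was not beyond counting error. Outside the mitochondrial chromosome, 46.4% of the 10896 windows of 1 kb with a mean of at least 10 alignments per 1e6 were highest in litter 3, and of the other 12 mitochondrial messenger and ribosomal RNA genes 10 were. Lowest in litter 2 were 11 of those 12 genes, so neither extreme was particular to the members. The nuclear windows lowest in litter 2 were not counted. Litter 3 divided by the average of the other litters gave 2.06 for mt-Cytb, 1.89 for the own bases of mt-Atp8, 1.17 for those of mt-Atp6 and 0.966 for the shared bases. The other 12 mitochondrial genes ranged from 0.883 to 4.55 with a median of 1.64, so mt-Cytb lay above that median and mt-Atp6 below it. For the nuclear windows the median ratio was 1.05 (quartiles 0.590 and 1.88). As a share of mitochondrial alignments, mt-Cytb was nearly level between litters, at 10.6%, 9.18% and 9.99%, whereas the pair made up 4.42%, 3.96% and 2.48%. Litter 3 was a single library that also had the highest mitochondrial share, and the part of either in these ratios was not tested.

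Within the genes the ratio of litter 3 to the others was not uniform. Along the pair it exceeded 1 in 15 of 21 windows of 40 bases and 2 in 9, with a median of 1.57. It was 4.0 in the trough from 8366 to 8405 and 0.592 in the smaller peak from 8526 to 8565. The 4 windows from 7926 to 8085, which hold the main peak, gave 0.984, 0.836, 0.932 and 0.922. In mt-Cytb the ratio exceeded 1 in 26 of 28 windows and 2 in 19, with a median of 2.66 and a highest value of 5.66 (14585 to 14624). The 2 windows under 1 were the one from 14705 to 14744 in the main peak, at 0.848, and the last, from 15225 to 15264, at 0.459. The second peak of mt-Cytb was unlike its main peak, with 160, 146 and 301 per 1e6 and a ratio of 1.97 from 14945 to 14984. In the 3 windows before the main peak of the pair, from 7766 to 7885, the ratio was 2.79, 3.19 and 2.88. Litter 3 therefore stood near the other litters at the main peak of the pair and, in mt-Cytb, from 14665 to 14784 (1.21, 0.848 and 1.02). Just before that stretch, from 14625 to 14664, litter 3 held 600 per 1e6 against 207 and 168, a ratio of 3.20. Just after it, from 14785 to 14824, litter 3 held 244 per 1e6 against 108 and 77.6, a ratio of 2.64. Litter 3 was thus above the other litters on both sides of that stretch. Over most other windows litter 3 was above the other litters by varying amounts, so the ratio for a whole gene depends on which of its bases are counted. The windows were laid out after the profile had been seen.

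**Figure D4:**
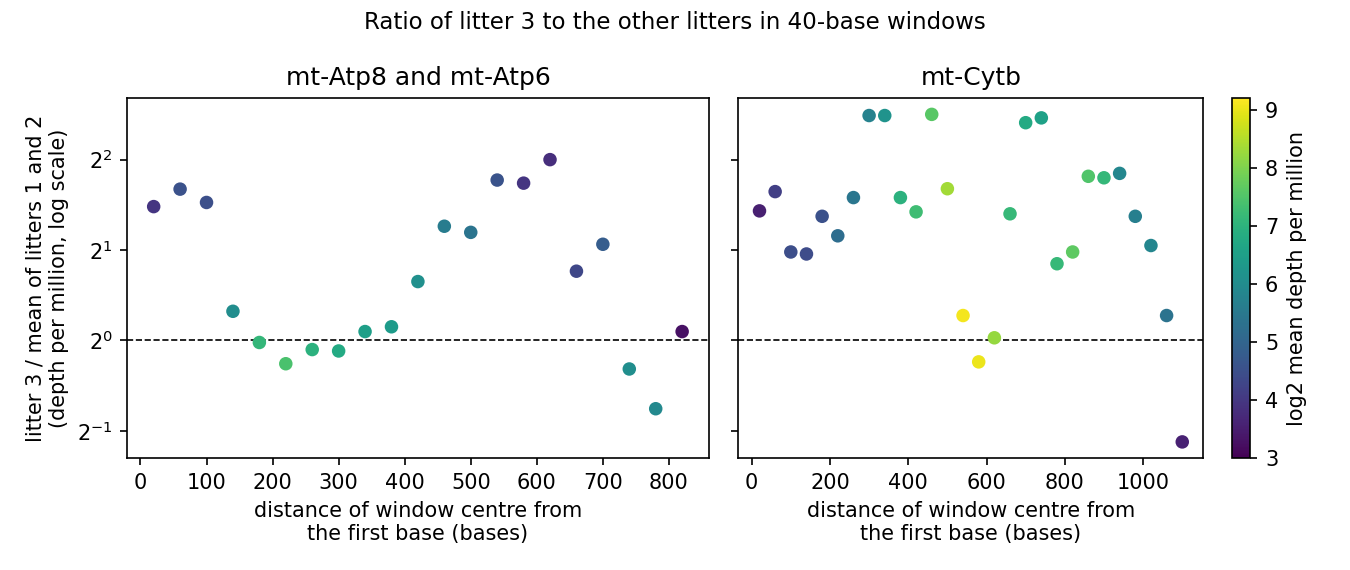
Depth per 1e6 in litter 3 divided by the average of the other litters (log axis) in 40-base windows along the ATP synthase pair (left) and mt-Cytb (right), coloured by log2 mean depth, with the dashed line at equal depth. The ratio is near 1 at the main peak of the pair and, in mt-Cytb, from 14665 to 14784. In mt-Cytb it is 3.20 in the window just before, from 14625 to 14664, and 2.64 just after, from 14785 to 14824. It reaches 4.0 in the pair and 5.66 in mt-Cytb elsewhere.

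The genes whose levels over the 3 litters were most like those of the members differed between the pair and mt-Cytb, and between both genes of the pair. Likeness was the Euclidean distance between log2 RPKM values, each centred on its mean over the 3 litters. For the pair the nearest genes were mt-Co3, at a distance of 0.0170, and mt-Co2, at 0.225. The ratio of mt-Atp6 to mt-Co3 was accordingly steady, at 4.41, 4.35 and 4.22 in litters 1, 2 and 3, although their levels differed over 4-fold. mt-Atp6 on its own bases was likewise nearest to mt-Co3, at 0.0462, whereas the own bases of mt-Atp8 were nearest to mt-Cytb, at 0.174, and lay at 0.528 from mt-Co3. Almost as near to mt-Atp8 as mt-Cytb were mt-Nd4, at 0.188, mt-Nd2, at 0.200, and mt-Nd5, at 0.201. The 2 genes of the pair thus had different nearest genes. For mt-Cytb the nearest other genes were the complex I subunits mt-Nd2, at 0.0788, and mt-Nd5, at 0.0921. With 3 litters such a distance describes these libraries only.

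Reads ran on from mt-Atp8 into mt-Atp6 but were few from mt-Atp6 into mt-Co3 and over the 3' end of mt-Cytb, while the start of mt-Atp8 was intermediate. Crossing was measured as alignments with at least 10 bases on either side of a border, as a percentage of the number that the mean depth of the 72 bases on either side would give. At the start of mt-Atp6, inside the shared RNA, 2957, 2320 and 2876 alignments crossed, or 105%, 108% and 119% (111% ± 7.37, SD, n = 3). From mt-Atp6 into mt-Co3, where a cut is made with no transfer RNA in between, 79, 8 and 84 crossed, or 10.6%, 2.23% and 18.2% (10.3% ± 8.0, SD, n = 3). The ranges of these 2 borders did not overlap, and without litter 3 the mean into mt-Co3 was 6.40%. At the start of mt-Atp8, next to the transfer RNA gene mt-Tk, 32, 39 and 217 alignments crossed, or 16.9%, 29.6% and 47.0% (31.2% ± 15.1, SD, n = 3), and 68.4% as a mean where 1 base on either side was enough. Depth there rose from 0.998, 1.11 and 3.54 per 1e6 before the border to 13.6, 10.1 and 35.7 after it. mt-Tk ends at base 7764 and mt-Atp8 starts at 7766, so the base between them belongs to neither gene. A read starting at that base holds no mt-Tk sequence but counts as crossing where 1 base is enough.

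At mt-Cytb the ends behaved differently from each other. At its 3' end, next to the transfer RNA gene mt-Tt, 0, 0 and 4 alignments crossed, where 182, 118 and 72.4 would be given by the mean depth. The counts of 0 in litters 1 and 2 allow up to 3 alignments, or shares of 1.65% and 2.53%. At its 5' end 377, 91 and 135 crossed, which is 153%, 103% and 38.8% of the number at mean depth. The 5' neighbour mt-Te is encoded on the opposite strand and the tracks hold no strand, so these reads cannot be assigned to mt-Cytb or to RNA of the other strand.

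The ATP synthase pair had a copy of its depth on a nuclear chromosome, and mt-Cytb did not. The depth over all 841 bases of the pair was identical, base for base and in all 3 litters, to that of an inverted stretch of chromosome 1 (24620811 to 24621651, mm9). The identical stretch ran on to both sides, over bases 6465 to 9411 of the mitochondrial chromosome, and so holds mt-Co2 and mt-Co3 as well. Of stretches of 3 successive start positions holding 50 or more alignments together, 538 of 538 in the pair recurred there and 0 of 897 in mt-Cytb recurred on any other chromosome. RNA of the mitochondrial genes and of the chromosome 1 copy therefore cannot be told apart in the pair, while mt-Cytb carries no such copy by this measure. The part of the copy in the likeness of mt-Co2 and mt-Co3 to the pair was not tested.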

How the data were processed

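RNA of ovulated oocytes was measured in 3 libraries, 1 per litter. The authors deposited a coverage signal file for each: raw, unscaled depth, with 1 whole number of overlapping alignments per interval. Reads were aligned with Bowtie to mm9, per the submitters' processing notes. Its version, settings and handling of multiple placements were not given in the sources used here. Over the ATP synthase pair, all 841 bases had the same whole-number depth on the mitochondrial chromosome and on chromosome 1. Reads in that stretch were therefore counted in full at both places. The tracks come from lanes 3, 4 and 8 for litters 1, 2 and 3, per the file headers.

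Library totals are summed depth divided by 72 bases. They count placements, so a read placed both there and on chromosome 1 enters for each. Isolated blocks at depth 1 were multiples of 72 bases in 100% of cases, so start positions were recovered as the step in depth plus the starts 72 bases earlier, with 0 negative values; this was tested on simulated data. RPKM used summed depth over bases of no other gene. The labelled groups give 1 group, so only ratios within libraries were tested, by exact sign-flip permutation (scipy 1.17.1, Python 3.11.15). Gene positions and sequences come from GENCODE M21 (GRCm38), and borders are exact only as far as both builds match. Nuclear genes were not analysed here. Named genes are the 3 members, the other mitochondrial messenger and ribosomal RNAs, the neighbours at the borders and in level, and the 2 nearest in pattern. Members, lists and tests were chosen with earlier results of these data known. Alternatives were the assignment of alignments, start positions counted once, trimmed or shared bases, library scaling, median depth, other sections, overhangs and leaving out each litter.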

Additional observations from a re-analysis of the deposited data

How the results depend on the processing

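Of 42 alternatives that changed the processing of the 12 results with a stated main value, 30 stayed within 1 SD between litters, 12 moved further and 0 reversed direction. Only the log2 ratios could reverse, because levels and crossing shares are never below 0. Leaving out 1 of 3 litters cannot move a mean past that SD, so those 36 values are no check. Without each litter in turn, levels ranged from 343 to 510 RPKM for mt-Atp8, 789 to 913 for mt-Atp6 and 1325 to 2122 for mt-Cytb, and the log2 ratio of the pair to mt-Cytb from -1.19 to -0.79, the weakest without litter 3. The log2 ratio of mt-Atp8 to mt-Atp6 ranged from -1.19 to -0.80, that of the 3' to the 5' section from 1.26 to 1.59 in mt-Cytb and from -1.49 to -1.29 in the pair. Crossing ranged from 23.3% to 38.3% at mt-Tk to mt-Atp8, 106% to 113% at mt-Atp8 to mt-Atp6, 6.40% to 14.4% at mt-Atp6 to mt-Co3 (14.4% without litter 2, 6.40% without litter 3), 71.1% to 128% at mt-Te to mt-Cytb and 0% to 2.76% at mt-Cytb to mt-Tt (0% without litter 3).

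Counting each start position once caps a position at 1 alignment. It gave levels of 170, 177 and 190 for mt-Atp8, mt-Atp6 and mt-Cytb. These levels were scaled to the distinct start positions of a library instead of its alignments. They are therefore not RPKM as defined above, and their size cannot be compared with the main levels. They were counted among the values that moved further, but the change of scale is part of that move. The log2 ratios were -0.10 for the pair to mt-Cytb and -0.06 for mt-Atp8 to mt-Atp6. For the 3' to the 5' section the log2 ratios were 0.01 in mt-Cytb and -0.29 in the pair. Including shared bases raised mt-Atp8 to 765 RPKM and its log2 ratio to mt-Atp6 to -0.24. Cutting in 2 instead of 3 sections gave 0.09 for mt-Cytb. With a single base on either side of a border, crossing was 68.4% at mt-Tk to mt-Atp8 and 6.48% at mt-Cytb to mt-Tt. The former includes any read that starts after mt-Tk, at the base before mt-Atp8. Trimming 20 bases from each end gave 362 RPKM for mt-Atp8, and comparing 3' sections gave -1.48 for the pair to mt-Cytb. Beyond what the construction of each alternative gives, the cause was not tested. mt-Cytb shares no bases, so that alternative has no value for it. The ratios within a library pair 2 regions of 1 sample. No paired analysis was possible because all 3 samples form a single group, so there are no 2 groups of samples to pair. Depth limits only the borders, where single digits of alignments crossed.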
